A study of Mus musculus with 2 samples.

Results

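The hepatocytes described here are the 800 cells in which Cdkn1a, the gene of the cell cycle inhibitor p21, took the highest share of the transcript counts. They were chosen among 26683 hepatocytes, out of 39559 barcodes in 2 single-cell libraries. A cell counted as a hepatocyte when it had 2000 to 10000 genes, at most 100000 unique molecular identifiers (UMIs, 1 for each captured molecule), a mitochondrial fraction of at most 0.05 and at most 2 UMIs of Ptprc, Pecam1 and Dcn together, which mark leukocytes, endothelial cells and fibroblasts. The UMIs of Cdkn1a were divided by all UMIs of the cell, and the 800 highest cells of both libraries together were taken. They are called p21-high hepatocytes below and are compared with the 5447 hepatocytes in which no Cdkn1a UMI was found. The other 20436 hepatocytes had at least 1 Cdkn1a UMI and lay below the limit. The choice is a range of a measured value and not a cell type.

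The cells came from livers of male p16-Tom mice, which carry 1 copy each of p16-CreERT2 and R26-CAG-LSL-tdTomato-WPRE on a C57BL/6 background. In these mice tamoxifen permanently switches on the red fluorescent protein tdTomato in cells that express the Cre recombinase from the p16 gene at that time. All mice received carbon tetrachloride (CCl4), a hepatotoxin activated by pericentral hepatocytes, for 4 weeks, together with tamoxifen. Liver tissue was fixed and dissociated, cells stained by a nuclear and a mitochondrial dye were sorted into tdTomato-negative (Tom-, p16low) and tdTomato-positive (Tom+, p16high) fractions, and each fraction gave 1 library of the probe-based Flex assay. How many mice were used is not given and no barcode is tied to an animal, so values compare these 2 libraries and have no replicate check. Intervals in brackets are at 95% and cover counting error only. No library from untreated mice was analysed here.

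p21 binds and inhibits cyclin-dependent kinases and holds cells before DNA replication. Its gene is a classical target of the transcription factor p53, which is stabilised by DNA damage and other stresses and also switches on its own inhibitor Mdm2, genes of programmed cell death and genes of DNA repair. In the injured liver p21 is known as a brake on hepatocyte proliferation and, beside p16, as a marker of senescent cells.

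In mouse, Cdkn1a (ENSMUSG00000023067) lies on chromosome 17 from 29090976 to 29100727 on the plus strand (mm10, GENCODE). The promoter windows that RefSeq gives for 27025 genes (GRCm38.p6, 250 bases before to 50 bases after each start) were searched for the p53 response element, taken as 2 adjacent half-sites of 10 bases each with at most 1 departure from the consensus and none at its fixed C and G. The element reads the same on both strands. It was found in 22 of 32851 windows (0.067%), or 22 of 27025 genes, among them 1 of the 2 windows of Cdkn1a. On the p53 target list, 3 of 25 genes with a window had it (Cdkn1a, Ccng1 and Gtse1), in 3 of 34 windows. Of the genes compared below in both libraries 2 of 4906 had it, and of those higher in both 1 of 21 (Ccng1). The windows of Cdkn1a and of Ccng1, the gene of cyclin G1, are shown around the element. Cdkn1a was the gene that chose the cells, and Ccng1 was higher in p21-high hepatocytes of both libraries. The limits of the search were chosen after the Cdkn1a window had been seen. Capitals mark the element.
Cdkn1a, chr17:29090908-29090967, plus strand: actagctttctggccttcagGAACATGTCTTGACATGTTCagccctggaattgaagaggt
Ccng1, chr11:40755442-40755501, minus strand: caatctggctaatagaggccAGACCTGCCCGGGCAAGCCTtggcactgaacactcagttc
The element ends 32 bases before the annotated start in the Cdkn1a window and 176 bases before it in the Ccng1 window. This Cdkn1a window runs from 29090729 to 29091028, at the upstream end of the gene span given above. The other Cdkn1a window, without the element, belongs to another annotated start. Which start hepatocytes use was not tested, so the distance of 32 bases holds for the upstream start alone. A match is a description of the letters and not of binding.

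Of the p21-high hepatocytes, 535 were in the Tom- library and 265 in the Tom+ library. The member share was 3.33% (3.05 to 3.62) among hepatocytes of the Tom- library. It was 2.50% (2.21 to 2.82) among those of the Tom+ library. Tom- cells thus supplied 66.9% of the members and 16083 of the 26683 hepatocytes. Levels are given as CPM, the UMIs of a gene scaled to a common total of UMIs. Cdkn1a summed over every hepatocyte stood at 104.5 CPM (103.6 to 105.4) among Tom- cells and at 86.5 CPM (85.6 to 87.4) among Tom+ cells. The share of members was higher in the Tom- library under each of the 8 other settings that gave it, for example 5.03% against 3.86% among cells of at least 20000 UMIs. When the 400 highest cells were taken, the shares were 1.56% and 1.41%, closer together than with 800. Tom- hepatocytes were shallower, with a median of 24584 UMIs against 33025 in the Tom+ library, and the part of depth in this difference was not tested.

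The value that chose the cells is a ratio of small counts. Members had a median of 6 Cdkn1a UMIs in the Tom- library (range 1 to 94) and 10 in the Tom+ library (2 to 67), and median values of 360 and 380 CPM. The 800th cell stood at 303.49 CPM (6 of 19770 UMIs) and the first cell outside at 303.39 CPM (20 of 65922 UMIs). The highest cell, in the Tom- library, had 94 of 10140 UMIs (9270 CPM), and the next had 2114 CPM. There were 2 members with a single Cdkn1a UMI, 72 with 2 and 291 with at least 10. Both classes at the ends of the scale were shallow: members had a median of 15912 UMIs in the Tom- and 25067 in the Tom+ library, cells without a Cdkn1a UMI had 13928 and 21437, and the hepatocytes between them had 28636 and 37437.

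To see how much of the value persisted in molecules that had not been used for the choice, each cell's UMIs were split at random into 2 equal parts, the 800 highest cells were chosen on one part and Cdkn1a was read in the other. Cells chosen in this way were at 218 CPM in the unused part in the Tom- library (205 to 231), against 76.2 CPM (74.0 to 78.5) in cells without a Cdkn1a UMI in the first part. In the Tom+ library the levels were 298.5 CPM (279.6 to 318.3) and 47.9 CPM (46.1 to 49.7). In the part used for the choice the same cells were at 470 and 492 CPM. The higher level therefore remained in unused molecules of both libraries, at a smaller size than in the molecules that chose the cells. Which cells were chosen changed more. Of those chosen on a part of their UMIs, 273 of 555 (Tom-) and 143 of 245 (Tom+) were among the 800 members described here.

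The identity of the cells was checked next. The 13 measured hepatocyte genes, such as those of albumin and transthyretin, had a median log2 ratio of -0.01 in both libraries, and none differed 1.5-fold. Alb was at 102680 CPM in Tom- members against 113850 CPM in cells without a Cdkn1a UMI, and at 89038 against 103110 CPM in the Tom+ library. The summed level of 11 endothelial markers was 208 against 300 CPM (Tom-) and 113 against 152 CPM (Tom+), that of 11 stellate and fibroblast markers 65.7 against 106.9 and 44.8 against 64.9 CPM, and that of 12 Kupffer cell and macrophage markers 558 against 651 and 349 against 326 CPM. Cholangiocyte markers summed to 46.7 against 39.1 and 40.0 against 29.9 CPM. No endothelial, macrophage or stellate marker of these lists was at 0 in any class, so other cells' RNA was present on both sides. There were 503 barcodes found in both libraries, and 24 members carried such a barcode.

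Expression was then compared gene by gene, with counts summed over the cells of a class within each library. A gene was compared when it reached 20 CPM in either sum and 50 UMIs over both, and was counted as higher or lower at 1.5-fold. In the Tom- library 26 of 6265 genes were higher in p21-high hepatocytes (0.415%) and 10 were lower (0.16%). In the Tom+ library 90 of 6430 genes were higher (1.4%) and 46 lower (0.715%). Of the 6144 genes compared in both libraries, 25 were higher in both (0.407%) and 2 lower in both (0.0326%). The median log2 ratio over all genes compared was 0.06 and 0.08. With 5 CPM as the minimum, 53 genes were higher and 18 lower in both libraries, and with a 2-fold limit 6 and 1. With 400 members 36 genes were higher in both, and with 1600 members 11. The count was 14 among cells without any Ptprc, Pecam1 or Dcn UMI, and also 14 with means over cells.

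Genes of a p53 target list stood among the genes higher in both libraries. Of the 25 genes higher in both libraries, 9 belong to a list of p53 targets: Plk2, Zmat3, Aen, Polk, Bax, Ccng1, Btg2, Mdm2 and Trp53inp1. The list was drawn up with earlier results of these data known and is described by its counts alone. Without Cdkn1a it has 30 measured genes, of which 18 were compared in the Tom- and 21 in the Tom+ library. There 9 and 13 of them were at least 1.5-fold higher and none was lower, and the median log2 ratio was 0.59 and 1.10. Of the compared genes 3 (Plk2, Zmat3 and Polk) in the Tom- library, and these with Phlda3, Eda2r and Sesn2 in the Tom+ library, were under 20 CPM in the comparison cells and so passed the minimum only through the members. Among the 15 listed genes with at least 20 CPM in the comparison cells, 6 and 7 were higher, with medians of 0.33 and 0.38, and 15 genes in all were then higher in both libraries, of which 6 are on the list. With no CPM minimum the medians were 0.61 and 1.14. These minimums were tried after the data had been seen. When the cells were chosen on a random part of their UMIs and read in the other part, the median was 0.35 and 1.00 and 5 of the 9 genes remained counted in both libraries. Btg2 and Trp53inp1 were lost there, as they were when the 1% of cells with most UMIs of a gene was left out. Zmat3 and Polk were lost as well, with ratios that stayed over 1.5-fold in both libraries but a level or count below the minimum for comparison in at least 1 of them.

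**Figure D1:**
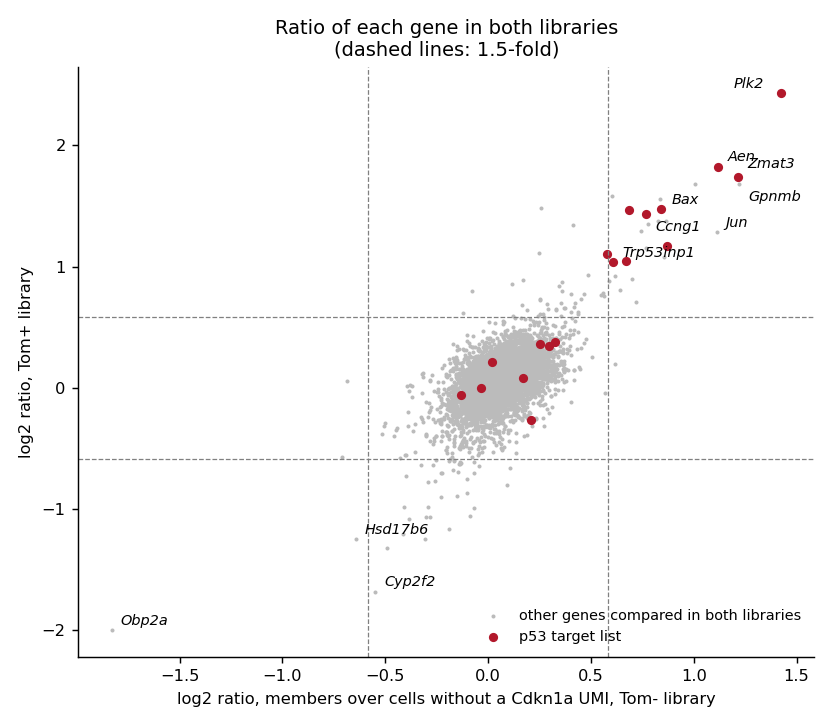
Log2 ratio of each of the 6144 genes compared in both libraries, p21-high hepatocytes over hepatocytes without a Cdkn1a UMI, in the Tom- library (horizontal axis) and the Tom+ library (vertical axis). Dashed lines mark 1.5-fold. Red points are p53 target genes, 9 of which lie past 1.5-fold in both libraries, and Obp2a and Hsd17b6 are the 2 genes lower in both.

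Among the 9 listed targets that were higher in both libraries, 5 are described first. Mdm2, the ubiquitin ligase that degrades p53, was at 139.5 CPM in Tom- members against 87.8 CPM in cells without a Cdkn1a UMI, and at 215 against 104.4 CPM in the Tom+ library. Its log2 ratios were 0.67 (0.58 to 0.75) and 1.04 (0.96 to 1.12). Plk2, a polo-like kinase (chromosome 13, 110395046 to 110400844), had the largest ratio among the genes higher in both, at 43.0 against 16.0 CPM and 59.0 against 10.96 CPM, with log2 ratios of 1.42 (1.26 to 1.59) and 2.43 (2.25 to 2.60). Ccng1, whose window is shown above (chromosome 11, 40748552 to 40755311), was at 96.9 against 56.8 and 141.7 against 52.6 CPM. Trp53inp1, a stress-induced partner of p53, supplied 23.9% and 25.3% of the list's UMIs in members and was at 379 against 249 and 523 against 255 CPM. Btg2, an antiproliferative gene, was at 49.3 against 30.7 and 64.2 against 23.3 CPM. The counting intervals of the 2 classes did not overlap for these genes in either library. Since the genes were picked as at least 1.5-fold higher in both, this is no further support.

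The listed p53 targets linked to cell death were uneven. Bax, the pore-forming protein of the mitochondrial outer membrane (chromosome 7, 45461697 to 45466898), was at 167.3 against 93.5 CPM (Tom-) and 252 against 91.0 CPM (Tom+), log2 ratios of 0.84 (0.76 to 0.92) and 1.47 (1.40 to 1.55). Bbc3, which encodes the BH3-only protein PUMA, had ratios of 0.58 (0.42 to 0.74), just under 1.5-fold, and 1.10 (0.95 to 1.25). Aen, a nuclease induced in apoptosis, was at 60.9 against 28.0 and 87.1 against 24.6 CPM. Of the listed genes at low levels, Pmaip1, which encodes the BH3-only protein NOXA, had 24 UMIs (2.20 against 1.97 CPM) in Tom- and 6 UMIs (0.755 against 1.24 CPM) in Tom+ members. The death receptor gene Tnfrsf10b was at 4.30 against 1.14 and 10.07 against 1.31 CPM. Phlda3, an inhibitor of Akt signalling, and Eda2r, a receptor of the tumour necrosis factor family, had the largest ratios among the listed genes compared in the Tom+ library. Phlda3 was at 18.2 against 1.99 CPM in the Tom- library and 42.2 against 1.501 CPM in the Tom+ library, log2 ratios of 3.19 (2.84 to 3.56) and 4.81 (4.46 to 5.17). Eda2r was at 12.2 against 1.48 and 20.0 against 1.52 CPM, with 3.04 (2.63 to 3.47) and 3.72 (3.33 to 4.12). Both stayed under 20 CPM in the Tom- library and are not among its counted genes, and each entered the Tom+ count through its level in members.

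DNA repair and RNA-binding members of the list also varied. Polk, a DNA polymerase that bypasses lesions, was at 21.8 against 11.9 and 27.1 against 12.1 CPM, and Zmat3, an RNA-binding protein, at 20.0 against 8.64 and 32.6 against 9.76 CPM. Ercc5, a nuclease of excision repair, had log2 ratios of 0.25 and 0.36. Other listed genes lay near the median of all genes: Perp had -0.03 and 0.00, Ei24 0.17 and 0.08, Dcxr 0.02 and 0.21, and Pltp -0.13 and -0.06. The death receptor gene Fas had 0.30 and 0.34. The transcript of p53 itself, Trp53, was at 36.8 against 31.1 CPM and 41.2 against 33.1 CPM, log2 ratios of 0.24 (0.08 to 0.40) and 0.31 (0.14 to 0.48).

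**Figure D2:**
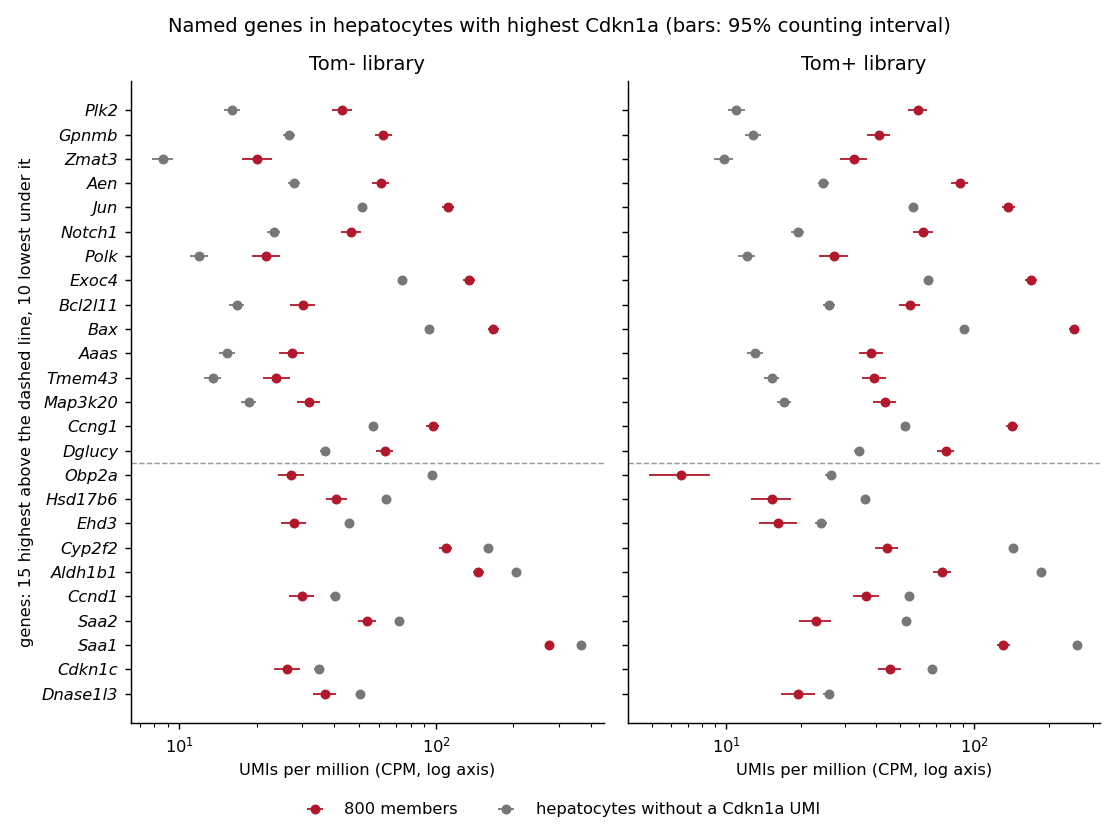
Level of the 15 named genes that were highest and the 10 that were lowest in members, in CPM on a log axis, in p21-high hepatocytes (red) and hepatocytes without a Cdkn1a UMI (grey) of each library, with 95% counting intervals. Plk2 stood at 43.0 against 16.0 CPM in the Tom- library, and Obp2a at 6.54 against 26.4 CPM in the Tom+ library.

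The 15 genes with the largest ratios in both libraries held 6 p53 targets and 9 other genes. Plk2, Zmat3, Polk, Aaas, Tmem43 and Map3k20 were under 20 CPM in the comparison cells of both libraries. Gpnmb and Notch1 were so in the Tom+ library and Bcl2l11 in the Tom- library. There these genes passed the minimum only through the members, so their place in the ranking depends on it. Jun, a subunit of the AP-1 transcription factor, was at 111.5 against 51.6 CPM (Tom-) and 136.9 against 56.3 CPM (Tom+). Notch1, a receptor of cell-cell signalling, was at 46.8 against 23.3 and 62.05 against 19.4 CPM. Exoc4, a subunit of the exocyst, was at 134.2 against 73.6 and 168.7 against 64.9 CPM. Bcl2l11 encodes the BH3-only death protein BIM and had log2 ratios of 0.85 and 1.08, and Map3k20, a kinase activated by stalled ribosomes, had 0.78 and 1.35. Aaas of the nuclear pore (0.84 and 1.56), Tmem43 of the nuclear membrane (0.83 and 1.37) and Dglucy, a D-glutamate cyclase (0.77 and 1.16), completed the group with Gpnmb. Leaving out, for each gene, the 1% of cells with most of its UMIs kept 19 of the 25 genes, and choosing the cells on a random part of the UMIs kept 14. Both settings were run to see whether few cells or the noise of the choice carried the counts, the first after the data had been seen.

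Gpnmb, a membrane glycoprotein of macrophages and other phagocytic cells, differed from the rest in how its counts were spread. It was at 62.2 against 26.7 CPM (Tom-) and 41.2 against 12.9 CPM (Tom+), but 5 members held 79.4% and 84.1% of its UMIs. Among cells of at least 20000 UMIs its Tom- log2 ratio was -1.09, and among cells without any Ptprc, Pecam1 or Dcn UMI -0.87. Over the other 24 named high and low genes the top 5 members held between 5.93% and 41.3% of the UMIs. Of the 25 genes higher in both libraries, 10 were under 20 CPM in the comparison cells of at least 1 library and so could be compared there only through the members. The other 15 had at least 20 CPM in both classes and both libraries.

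Other stress genes were examined in lists of their own, beside shares of 0.415% (Tom-) and 1.4% (Tom+) of all compared genes that were higher. Gdf15, a secreted stress cytokine listed both in the integrated stress response and in the senescent secretory phenotype, was at 938 against 601 CPM and 1056 against 603 CPM. It was the only gene of either list that was higher in both libraries, and it was no longer counted when the cells were chosen on a random part of their UMIs. The other 4 genes compared in the secretory list were not 1.5-fold apart. Of these Igfbp7 had log2 ratios of -0.45 and -0.35, Cxcl1 -0.08 and -0.57, Igfbp4 -0.05 and -0.03 and Vegfa 0.07 and -0.25, and the list's medians were -0.05 and -0.25. Ddit3, the transcription factor CHOP, had log2 ratios of 0.36 and 0.80, and Atf4 0.29 and 0.35. Of the immediate early genes 1 of 9 was higher in the Tom- library (Jun) and 4 of 10 in the Tom+ library, where Klf6 stood at 44.9 against 17.7 CPM and Fos at 28.9 against 13.4 CPM, 58.7% of the latter in 5 members. Both were under 20 CPM in the Tom+ comparison cells and were compared there through the members alone. Of the BCL2 family, which sets the threshold of mitochondrial cell death, 2 of 8 genes were higher in the Tom- library (Bax and Bcl2l11) and 3 of 8 in the Tom+ library, with medians of 0.16 and 0.31. Bcl2l11 was under 20 CPM in the Tom- comparison cells, and without the 2 genes that passed there through the members alone 1 of 6 was higher. Tnfrsf12a, the receptor of the injury cytokine TWEAK, was at 33.1 against 21.9 and 70.0 against 23.4 CPM, with 37.2% of the Tom+ members' UMIs in 5 cells. It was no longer counted in both libraries with the random part of the UMIs or with the 1% of cells left out. The NRF2 and glutathione list had 1 of 9 and 3 of 11 genes higher, with medians of 0.12 and 0.36. For Tom+, 2 of these genes (Srxn1 and Abcc4) passed through the members alone, and 1 of the other 9 was higher, with a median of 0.24. Its gene Ephx1, an epoxide hydrolase of xenobiotic metabolism, was at 666 against 442 and 1107 against 600 CPM. Ephx1 was under 1.5-fold in at least 1 library with the random part of the UMIs, with the 1% of cells left out and with comparison cells weighted to depth, or to depth and zone.

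Few genes were lower. Obp2a, a lipocalin that binds small lipophilic molecules (chromosome 2, 25700043 to 25703326), was at 27.2 against 96.8 CPM (Tom-) and 6.54 against 26.4 CPM (Tom+), log2 ratios of -1.83 (-2.01 to -1.66) and -2.00 (-2.44 to -1.61). Hsd17b6, a steroid dehydrogenase on the list of periportal (zone 1) genes used below, was at 40.8 against 63.8 and 15.2 against 36.3 CPM. These were the 2 genes lower by 1.5-fold in both libraries. In the Tom+ library both were under 20 CPM in members and passed the minimum only through the comparison cells. Weighting the comparison cells to the members' depth gave 4 genes lower in both libraries, to zone 3, and to depth and zone together 0. Cyp2f2 and Aldh1b1, metabolic genes of periportal hepatocytes, were lower by 1.5-fold in the Tom+ library only, with log2 ratios of -1.68 and -1.32 against -0.55 and -0.49 in the Tom- library. Ccnd1, the gene of cyclin D1, had -0.43 and -0.58, and Cdkn1c, which encodes the related inhibitor p57, -0.41 and -0.56. The acute phase genes Saa1 and Saa2 are near-identical copies whose probes may share reads, and had -0.41 and -0.99, and -0.41 and -1.20. Ehd3 (27.9 against 45.8 and 16.2 against 24.1 CPM) and Dnase1l3 (36.8 against 50.5 and 19.5 against 25.8 CPM) were also lower. In the Tom+ library these 2 genes were under 20 CPM in members and passed the minimum through the comparison cells alone. The endothelial markers given above were lower too, and their part in these values was not tested. Against hepatocytes with a Cdkn1a UMI, Dnase1l3 had 0.19 and 0.03 and Ehd3 had 0.04 in the Tom- library, so their direction depended on the comparison cells.

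Of a list of the other inhibitors of cyclin-dependent kinases, the pocket proteins and the E2F gene E2f4, 6 genes were compared. None was 1.5-fold higher or lower. Over all genes compared in both libraries 0.407% were higher and 0.0326% lower, so 6 genes are too few to differ from that share. Cdkn2c, the gene of p18, had log2 ratios of 0.24 and 0.33, and Cdkn1b, the gene of p27, 0.08 and 0.04. Counts of Cdkn2a, the locus of p16, came to 7 UMIs among the Tom- members and 5 among the Tom+ members, with intervals of the log2 ratio from -0.84 to 1.92 and from -0.07 to 3.52, so a difference was not detectable at this depth. A custom feature, named by the gene identifier of Cdkn2a and p16 and without a given probe sequence, counted 3 and 5 UMIs in members. Genes of the G2 and M phases were all under 20 CPM. Their sum was 66.3 against 30.5 CPM (Tom-) and 32.7 against 20.0 CPM (Tom+), and 5 members held 59.0% and 41.2% of these UMIs.

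The level of the p53 list was followed along the whole range of Cdkn1a. Hepatocytes with a Cdkn1a UMI that were not members were divided at the same values into 3 groups. From the cells without a Cdkn1a UMI upwards, the summed list without Cdkn1a was at 1091, 1054, 1089, 1173 and, in members, 1589 CPM in the Tom- library. In the Tom+ library it was at 1065, 1046, 1105, 1268 and 2072 CPM. The lowest positive group lay slightly under the cells without a UMI in both libraries, and most of the increase fell between the highest positive group and the members. Within the members, those above the median value were at 1737 CPM (1700 to 1775) and those below it at 1477 CPM (1447 to 1507) in the Tom- library. The corresponding levels in the Tom+ library were 2338 (2292 to 2385) and 1776 CPM (1734 to 1820).

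**Figure D3:**
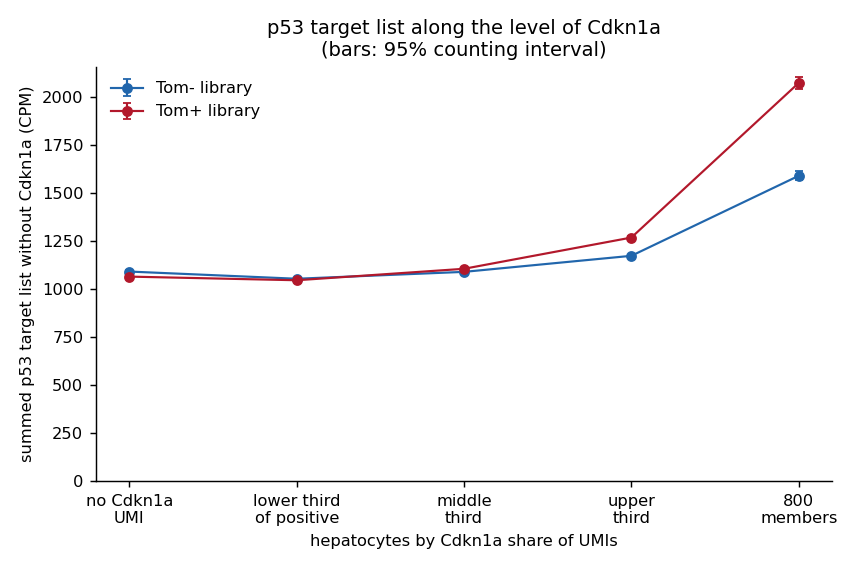
Summed level of the p53 target list without Cdkn1a (vertical axis, CPM) in hepatocytes ordered by the Cdkn1a share of their UMIs, for the Tom- (blue) and Tom+ (red) library, with 95% counting intervals. The level stayed between 1046 and 1268 CPM up to the members, which stood at 1589 and 2072 CPM.

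The list was also counted cell by cell. Each cell was thinned to 5000 UMIs and its UMIs of the p53 list were counted, leaving out 22 Tom- and 10 Tom+ members that were shallower. The median was 7 UMIs in Tom- members and 8 in Tom+ members, against 5 in both other classes of both libraries. More than 9 UMIs, the 90th percentile of cells without a Cdkn1a UMI, were found in 23.2% of Tom- members (19.6 to 27.1) and 40.8% of Tom+ members (34.7 to 47.1). The shares were 8.31% and 7.67% in cells without a Cdkn1a UMI, and 7.54% and 9.57% in the other positive hepatocytes. Most members thus had no more than 9 UMIs in both libraries. Counts of so few UMIs vary by sampling, so they cannot tell a difference shared by all members from one in some of them.

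**Figure D4:**
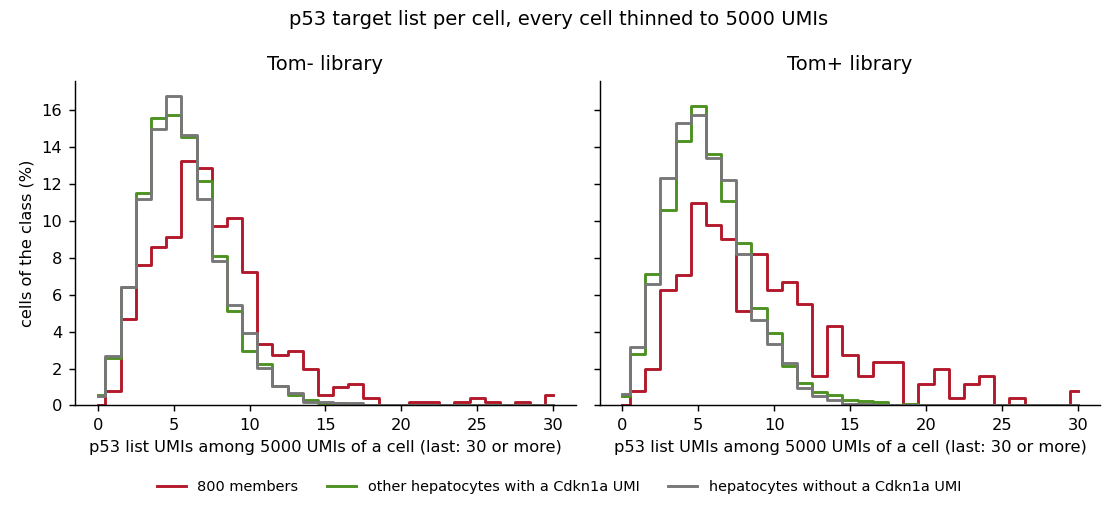
Percent of cells of each class (vertical axis) by the number of p53 list UMIs among 5000 UMIs of the cell (horizontal axis), in the Tom- and Tom+ library. The 2 classes of other hepatocytes overlap around a median of 5 UMIs, and a larger share of members lies above 9 UMIs. The last step holds cells with 30 UMIs or more, which occur in members and in other positive hepatocytes.

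Hepatocytes differ along the lobule from the portal end (zone 1) to the central vein (zone 3), where CCl4 is activated. A zone index, the scaled UMIs of zone 3 genes over those of zone 3 and zone 1 genes, was divided into 5 groups of equal size over all hepatocytes. At the zone 3 end the intervals of members and cells without a Cdkn1a UMI overlapped. In the Tom- library 11.2% of members (8.67 to 14.2) and 11.5% of cells without a Cdkn1a UMI (10.4 to 12.7) fell in that group. In the Tom+ library these shares were 41.1% (35.1 to 47.3) and 40.8% (38.8 to 42.8). In the second group from the zone 1 end the intervals of the Tom+ library did not overlap, with 9.81% of members (6.51 to 14.05) against 15.6% (14.2 to 17.2). The median index was 0.337 in members against 0.351 (Tom-) and 0.758 against 0.727 (Tom+). Among cells of at least 20000 UMIs, the share of members in the zone 3 end group was 6.13 and 6.28 percentage points lower than that of their comparison cells. With 1600 members the differences were -2.57 (-4.52 to -0.44) and -4.76 points (-9.26 to -0.09). Against the other hepatocytes with a Cdkn1a UMI they were 2.01 (-0.44 to 5.01) and 7.22 points (1.37 to 13.3), so the direction depended on which cells were compared. The share of hepatocytes that were members lay between 2.22% and 4.22% over the 5 groups in the Tom- library and between 1.45% and 2.98% in the Tom+ library, and was higher in the Tom- library in each, with intervals that overlapped in all but the second group. In the Tom- library the groups with 4.22% and 2.22% had medians of 16180 and 32480 UMIs and summed Cdkn1a at 106.9 and 104.8 CPM. In the Tom+ library those with 2.98% and 1.45% had 32090 and 39260 UMIs, and 92.1 and 81.8 CPM. The part of depth in these shares was not tested. There were 154 members within 0.02 of a border between groups.

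The p53 list was higher in members in each group of the index. The log2 ratio of its summed level was 0.47, 0.46, 0.45, 0.50 and 0.91 from the zone 1 to the zone 3 end in the Tom- library, and 0.57, 0.83, 0.60, 0.84 and 1.16 in the Tom+ library. At the zone 3 end this was 2181 against 1163 CPM (60 members) and 2474 against 1109 CPM (109 members), with 20.5% and 13.2% of the members' list UMIs in 5 cells. The 2 groups nearest the zone 1 end held 18 and 26 Tom+ members, of which 5 cells supplied 62.2% and 61.99% of the list's UMIs. With comparison cells weighted to the members' depth and zone, the list's median over genes was 0.60 and 1.11, and 24 of the 25 genes were higher in both libraries. Unlike the ratios above, this median is not one of summed levels. It still includes genes that passed the minimum only through the members. Leaving such genes out without weighting gave medians of 0.33 and 0.38, and the 2 settings were not combined.

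**Figure D5:**
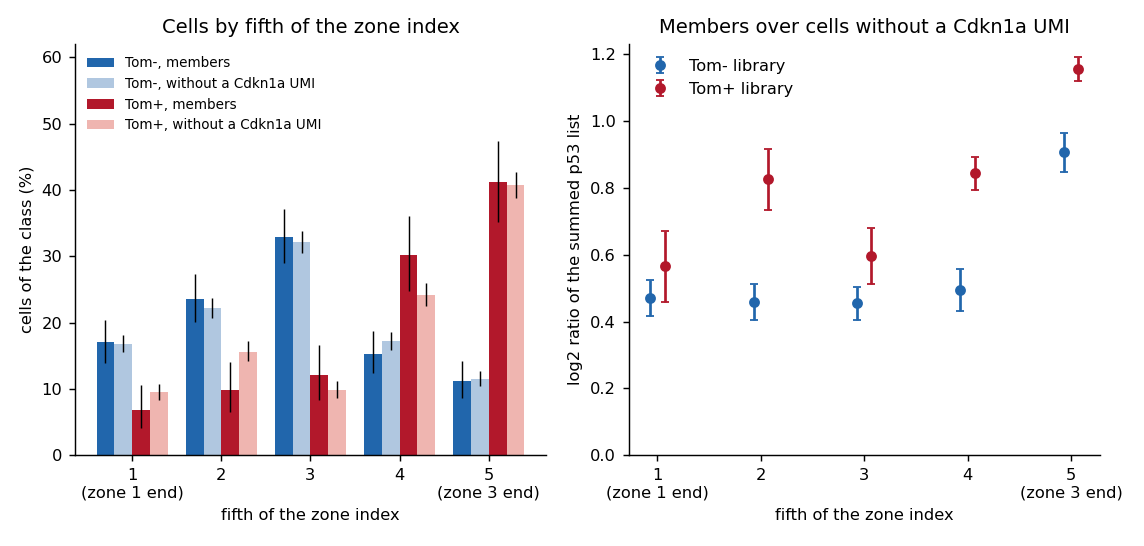
Left, percent of cells of each class (vertical axis) in 5 equal groups of the zone index from the zone 1 to the zone 3 end, for both libraries. Right, log2 ratio of the summed p53 list in members over cells without a Cdkn1a UMI in the same groups, with 95% counting intervals. The ratios lay between 0.45 and 1.16.

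Over all genes compared, 0.715% were lower in the Tom+ and 0.16% in the Tom- library, and the counts that follow stand beside these shares. Of the zone 1 list, 6 of 15 genes were lower by 1.5-fold in the Tom+ library (median -0.48) and 1 of 15 in the Tom- library (-0.07). Of the Tom+ genes, Hsd17b6 passed the minimum through the comparison cells alone. The difference between the libraries was not tested. Of 11 genes of fatty acid synthesis, 6 were lower in the Tom+ library (median -0.61) and none in the Tom- library (-0.14). Thrsp, an activator of lipogenesis, was at 449 against 888 CPM in Tom+ cells and 591 against 723 CPM in Tom- cells, and Acacb, an acetyl-CoA carboxylase, at 22.9 against 47.7 and 39.1 against 41.6 CPM. The Tom+ median of the fatty acid synthesis list stayed between -0.45 and -0.69 over the settings tried. The cholesterol synthesis list had medians of -0.10 and -0.30, with 0 and 2 genes lower.

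Of the circadian genes compared, 3 of 13 were lower in the Tom+ library and 0 of 11 in the Tom- library. All 3 (Dbp, Per2 and Per3) were under 20 CPM in Tom+ members and passed the minimum through the comparison cells alone. Dbp, a clock output factor, was at 11.1 against 43.7 CPM in Tom+ cells, with 51.1% of the members' UMIs in 5 cells, and Per3 at 14.9 against 33.4 CPM. In Tom- cells Dbp was at 8.51 against 12.0 CPM and Per3 at 14.8 against 14.2 CPM, below the limit for comparison. Metallothionein Mt2 was at 1273 against 997 CPM and 1254 against 772 CPM. The lists of the unfolded protein response, the interferon response and cytochrome P450 enzymes had medians between -0.06 and 0.14 over the genes compared, none of which was past 1.5-fold. Of the 16 measured interferon genes 8 were compared.

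The reporter that separates the libraries was not higher in p21-high hepatocytes. tdTomato was at 93.6 CPM in Tom- members and 103.7 CPM in Tom- cells without a Cdkn1a UMI, a log2 ratio of -0.15 (-0.24 to -0.05). In the Tom+ library it was at 863 and 971 CPM, a ratio of -0.17 (-0.21 to -0.13). Against the other hepatocytes with a Cdkn1a UMI, which are deeper, the ratios were 0.33 and 0.14, so the direction depended on the comparison cells. Weighting the comparison cells to the members' depth gave -0.000372 and -0.07. Choosing the cells on a random part of their UMIs gave 0.04 and -0.09.

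Finally, the members of the 2 libraries were set beside each other. Of 6489 genes compared, 143 were at least 1.5-fold higher (2.2%) and 107 lower (1.65%) in Tom+ than in Tom- members. Between cells without a Cdkn1a UMI 74 genes were higher and 80 lower, and these included 58 and 51 of the genes counted between members. Their share of the genes compared in those cells was not calculated. The sums held 2353 Tom+ and 3094 Tom- cells there, against 265 and 535 members, so a few cells weigh more among members. The part of this in the larger counts between members was not tested. The members of the 2 libraries also differed in position, with a median zone index of 0.758 (Tom+) and 0.337 (Tom-). Their depth differed too, at medians of 25067 and 15912 UMIs. The part of position and depth in the differences was not tested. Apart from the tdTomato transgene, the 5 genes with the largest ratios (Cpe, Cd14, Ddr1, Abcc4 and Ces2c) were under 20 CPM in Tom- members and passed the minimum only through the Tom+ members. Cpe, the gene of carboxypeptidase E, was at 21.4 CPM in Tom+ and 1.46 CPM in Tom- members, and at 6.37 and 0.75 CPM in cells without a Cdkn1a UMI. Ddr1, a collagen receptor, was at 23.8 and 4.76 CPM in members and 4.56 and 3.62 CPM in cells without a Cdkn1a UMI. Abcc4, a transporter, and Ces2c, a carboxylesterase with close relatives in the genome, had log2 ratios of 1.97 and 1.69 in members and 1.37 and 2.00 in the other cells. Obp2a (-2.04), A1bg (-1.55), Ptgds (-1.52), Etnppl (-1.46) and the macrophage gene Marco (-1.43) had the smallest ratios, and these were -1.88, -0.61, -0.82, -0.68 and -1.24 without a Cdkn1a UMI. Obp2a and Marco were at 6.54 and 12.5 CPM in Tom+ members and passed the minimum only through the Tom- members. Taking the 400 highest cells of each library in place of a common limit gave 83 higher and 90 lower genes, and median-of-ratios scaling gave 109 higher and 124 lower, so which direction held more genes depended on the setting. The summed Cdkn1a level, which chose the cells, was 411.7 CPM for Tom+ members and 390.3 CPM for Tom- members.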

How the data were processed

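The deposited matrices hold raw UMI counts, which the authors made with Cell Ranger (version 7.2.0 in the submitters' processing notes, mm10) from fixed cells hybridised to pairs of probes, with custom probes added, and did not normalise. The Tom- library had 681279005 UMIs in 23220 barcodes and the Tom+ library 715333889 UMIs in 16339 barcodes, and hepatocytes had a median of 24584 and 33025 UMIs. Levels of different genes are not comparable in a probe assay. Limits on genes, UMIs and mitochondrial share followed the study's methods. The study's removal of clusters by low gene counts or by Ptprc, Dcn or Pecam1 was not run, and the limit on these 3 genes per cell stood in its place. Counts were summed per class and library. Log2 ratios used a pseudocount of 0.5 UMIs. Intervals are exact (Poisson, conditional binomial or Clopper-Pearson). No test across samples was possible with 1 library per group. Levels along Cdkn1a, the split of UMIs and the thinning used a fixed seed.

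Named genes were the 15 largest and 10 smallest ratios, ranked by the library nearer to 0 among genes of the same direction in both, up to 4 genes of each list, genes a comparison is about, and 5 from each end between members of the libraries. The ranking left out Cdkn1a, the 3 marker genes of the filter, custom features and mitochondrial genes. The members and the gene lists were chosen with earlier results of these data known.

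Scrublet, run per library, marked 0 of 20159 and 0 of 13378 cells at its automatic threshold, so it gave no doublet call to use. Doublets were not removed, and leaving out the 10% of cells with the highest scores was an alternative. Alternatives changed the number of members, depth, filters, comparison cells, scaling and limits. The calculation was tested on simulated counts. Python 3.11.15, numpy 2.4.6, scipy 1.17.1, pandas 2.3.3, scanpy 1.11.5 and matplotlib 3.10.9 were used.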

Additional observations from a re-analysis of the deposited data

Results flagged for a closer look

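Over all gene lists, 247 genes were compared in both libraries, and 15 of these had intervals on opposite sides of 0, with log2 ratios between -0.32 and 0.21. Sulf2 and Txnip are given below, as members of the p53 list and of the genes that the study measured by qPCR, with Cd14, which was named for its difference between members of the libraries. Cd14, a receptor of monocytes, macrophages and injured hepatocytes, was at 3.48 against 5.61 CPM in Tom- members and cells without a Cdkn1a UMI (log2 ratio -0.67) and at 29.6 against 5.07 CPM in the Tom+ library (2.55). In the Tom+ library 5 members held 83.4% of its UMIs, and 42 members had any. Sulf2, an extracellular sulfatase, was at 39.7 against 34.4 CPM (0.21) and 19.8 against 23.8 CPM (-0.26). Txnip, an inhibitor of thioredoxin, was at 278.5 against 240.0 CPM (0.21) and 252.3 against 314.6 CPM (-0.32). The difference between libraries was not tested for these genes, since each group has 1 library.

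The custom LINE-1 feature L1Md_A lies outside the comparisons of the report. It was at 3515 CPM in Tom- members and 3173 CPM in Tom- cells without a Cdkn1a UMI, a log2 ratio of 0.15 (0.13 to 0.16), and at 3760 and 3815 CPM in the Tom+ library, a ratio of -0.02. What the probe binds was not tested.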

How the results depend on the processing

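No paired analysis was possible because there was 1 library per group, and no library could be left out. The 4 reversals among the main values were all of tdTomato, and the cause of changes was not tested unless named. The median of the p53 list was above 0 in each alternative that gave one, and lowest at 0.33 (Tom-) and 0.38 (Tom+) with a minimum of 20 CPM in the comparison cells, which left 15 genes higher in both and was chosen after seeing the data. It leaves out genes that passed through the members alone. The highest medians were 0.78 and 1.40.

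With 400 members, 5 genes were lower in both libraries, the p53 median was 1.40 (Tom+), the tdTomato ratio -0.0403 (Tom+), 247 genes were higher in Tom+ than Tom- members, the shares of members were 1.56% and 1.41% and Tom- members had a median of 13310 UMIs. With 1600 members these were 1, 0.80, -0.27 (Tom-: -0.25), 93, 6.75% and 4.85%, and 18180 UMIs, with 11 genes higher in both. With 400 of each library the Tom+ tdTomato ratio was -0.24, with 83 genes higher and 90 lower in Tom+ members. Among cells of at least 20000 UMIs the tdTomato ratios were -0.34 in both, Gpnmb reversed to -1.09 (Tom-), 93 genes were higher and 65 lower in Tom+ members, the shares were 5.03% and 3.86%, the zone 3 end differences -6.13 and -6.28 percentage points, and the medians 33310 and 40230 UMIs. Without any Ptprc, Pecam1 or Dcn UMI, 14 genes were higher in both, Gpnmb reversed to -0.87 (Tom-), tdTomato was -0.23 (Tom+), 59 genes were lower in Tom+ members, the shares were 6.02% and 4.49%, and the Tom- median was 18090 UMIs. With 3000 to 8000 genes per cell that median was 21370 UMIs, and without the highest doublet scores the Tom- share was 3.62%.

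Choosing on a random part of the UMIs gave 1 gene lower in both, tdTomato ratios of 0.0396 (reversed) and -0.0925, 0.31 for Ehd3 (Tom+, reversed) and medians of 14420 and 20530 UMIs. Against other hepatocytes with a Cdkn1a UMI, 4 genes were lower in both, the zone 3 end difference was 7.22 (Tom+), and these reversed: the endothelial list to 0.17 (Tom-), tdTomato to 0.33 and 0.14, Ehd3 to 0.0356 (Tom-) and Dnase1l3 to 0.19 and 0.0340. Matching depth gave 4 genes lower and tdTomato at -0.000372 and -0.0744, matching depth and zone 0 genes and -0.0318 and -0.0884, and means over cells 14 higher, 1 lower and 0.0270 (reversed) and -0.0123. Median-of-ratios scaling gave 4 genes lower, -0.25 (Tom+) and 109 genes higher and 124 lower in Tom+ members. The counts higher and lower in both, and higher and lower in Tom+ members, were 53, 18, 330 and 346 with a minimum of 5 CPM, 11, 0, 68 and 58 with 50 CPM, 114, 88, 384 and 487 with none, and 6, 1, 32 and 21 at 2-fold. Leaving out the 1% of cells with most UMIs of a gene, chosen after seeing the data, gave a tdTomato ratio of -0.21 (Tom+).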
